A study of Mus musculus with 6 samples.

Results

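The vascular endothelial growth factor (VEGF) family was followed through single heart cells as 10 genes of the 22281 features in the count table. These were the 5 ligands Vegfa, Vegfb, Vegfc, Figf and Pgf, the 3 tyrosine kinase receptors Kdr, Flt1 and Flt4, and the coreceptors Nrp1 and Nrp2. They were chosen as a family by name, with earlier results of these data known, and all 10 were found. Figf is the older symbol of Vegfd. The cells came from adult mouse hearts by Drop-seq, which tags the 3' ends of the transcripts of each cell in a droplet and counts them as unique molecular identifiers (UMIs). All mice had received tamoxifen and carried Myh6-MCM, a tamoxifen-activated Cre recombinase under the cardiomyocyte promoter of Myh6; these alone were the Control group. YAP5SA mice (Yap5SA+/tg; Myh6-MCM) also carried a transgenic YAP, the coactivator held back by the Hippo pathway, in a form out of reach of phosphorylation by Lats kinases. For each genotype there were 3 libraries, 1 of cardiomyocytes enriched by settling and 2 of dissociated tissue, called here by the numbers in the cell names (Control tissue 2 and 3, YAP5SA tissue 1 and 2). The labels do not say that libraries came from separate animals, so the p-values measure the spread between these libraries alone, which may be technical. In each fit that spread is partly or wholly shared over genes, and is not that of the named gene alone.

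VEGF ligands are secreted dimers that reach endothelial cells and signal through receptor tyrosine kinases. Vegfa acts through Kdr (VEGFR2), the main receptor for endothelial growth and permeability, and is bound more tightly by Flt1 (VEGFR1), which acts largely as a trap; Vegfb and Pgf bind Flt1 and not Kdr. Vegfc and the product of Figf are made as precursors and signal through Flt4 (VEGFR3), the receptor of lymphatic endothelium; cleaved Vegfc also binds Kdr. Neuropilins 1 and 2 bind VEGFs as well as class 3 semaphorins. In the adult heart, cardiomyocytes are a known source of Vegfa and Vegfb for the capillaries beside them.

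The sequences upstream of the 3 ligand genes that passed the test in cardiomyocytes are shown first, since YAP acts on DNA through TEAD factors and a reader may look for their motif there. They are from RefSeq on GRCm38.p6, run 5′ to 3′ on the gene's strand, and end at or before the annotated transcription start; capitals mark GC boxes (GGGCGG on either strand). Figf lies on chromosome X, plus strand, and its stretch of 106 bases (chrX:164373272-164373377) stops at the base before the earliest start in GENCODE vM21, upstream of that in RefSeq. Vegfc is on chromosome 8, plus strand (250 bases, chr8:54077282-54077531), and Vegfb on chromosome 19, minus strand (250 bases, chr19:6987652-6987901).
Figf: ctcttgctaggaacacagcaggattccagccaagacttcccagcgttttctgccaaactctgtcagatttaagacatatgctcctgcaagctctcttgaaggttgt
Vegfc: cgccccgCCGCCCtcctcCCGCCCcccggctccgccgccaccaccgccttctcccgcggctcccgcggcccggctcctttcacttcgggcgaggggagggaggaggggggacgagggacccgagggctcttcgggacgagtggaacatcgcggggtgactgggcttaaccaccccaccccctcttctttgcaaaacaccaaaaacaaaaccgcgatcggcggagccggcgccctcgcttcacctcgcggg
Vegfb: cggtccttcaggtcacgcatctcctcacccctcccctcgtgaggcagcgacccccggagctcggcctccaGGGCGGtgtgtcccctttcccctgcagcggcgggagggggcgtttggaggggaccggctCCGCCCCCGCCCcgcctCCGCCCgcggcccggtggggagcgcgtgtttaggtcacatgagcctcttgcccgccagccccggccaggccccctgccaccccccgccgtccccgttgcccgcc
All 10 members matched the table of promoters, with 12 windows of 250 bases before a start. No window held the TEAD motif GGAATG or the AP-1 motif TGANTCA on either strand, against 12.6% and 6.87% of the first listed windows of 27025 genes. The core of the hypoxia response element (ACGTG, 16.6% of all windows) was in 1 window, the inner start of Vegfa. GC boxes (32.9% of all windows) were in windows of 9 of the 10 members, with 4 in that of Vegfb, 2 in that of Vegfc and 0 in that of Figf. These matches describe letters in short windows and were not related to binding.

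The 6 libraries held 21706 cells and between 3382656 and 13483791 UMIs each. Over all cells the median mitochondrial share was 13.4%, 2.31% and 16.0% in the enriched, tissue 2 and tissue 3 libraries of Control. It was 6.60%, 2.95% and 2.40% in the enriched, tissue 1 and tissue 2 libraries of YAP5SA. Without Control tissue 2 the genotypes did not overlap in this share, and its part in the results was not tested. The authors' 17 clusters were joined by name into 8 classes. Cardiomyocytes numbered 282 to 1173 per library, but macrophages were absent from the enriched Control library and made up 49.0% of the UMIs of YAP5SA tissue 2. Each class showed its own markers in every library, but the smooth muscle cluster (22 to 88 cells per library) carried summed levels of 5 smooth muscle markers of 6706 to 11390 CPM (UMIs per 1000000 UMIs), of 6 pericyte markers of 3105 to 5641 CPM and of 9 vascular endothelial markers of 9284 to 13480 CPM. The epicardial class carried 13670 to 18460 CPM of fibroblast markers beside 5160 to 8772 CPM of its own, and Control monocytes 1078 to 9808 CPM of fibroblast markers beside 352 to 2231 CPM of monocyte markers. Lymphatic endothelium had no cluster of its own. Within the endothelial class its markers Prox1, Ccl21a, Mmrn1 and Reln gave 13, 21, 22 and 13 UMIs, with Pdpn at 0. Lyve1 gave 104 UMIs there, 366 in endocardial cells and 7137 in macrophages. Prox1 gave 24 UMIs in endocardial cells and 668 in cardiomyocytes. Summed, the 6 lymphatic markers were at 8.14 to 91.05 CPM in endothelial and 172 to 899 CPM in endocardial cells. At most 2 cell barcodes were shared by any pair of libraries, and doublets were not removed. Levels below are a gene's CPM among the UMIs of that class in that library, given for libraries with at least 10 cells of the class. The authors drew the clusters from the same transcripts, so levels between classes are a description with no test.

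Among the senders, cardiomyocytes had the highest mean levels of Vegfa and Vegfb. Vegfa had 61.4 to 232 CPM in cardiomyocytes and at most 115 CPM (smooth muscle, YAP5SA tissue 2) in any library of another class, so that its range overlapped that of the smooth muscle cluster. Smooth muscle, epicardial cells and fibroblasts followed with means of 47.7, 42.6 and 36.0 CPM and ranges that overlapped each other. Vegfb ranged from 146 to 411 CPM in cardiomyocytes, above the libraries of each other class, where the highest was 112 CPM (fibroblasts, the 10 cells of the enriched Control library). The 7 other classes lay together for Vegfb, with means between 14.2 and 39.7 CPM. Vegfc, by contrast, was lowest in leukocytes and cardiomyocytes and highest in the smooth muscle cluster (44.4 to 215 CPM) and endothelial cells (40.7 to 64.2 CPM), whose ranges overlapped. Pgf was found in the smooth muscle cluster (66.6 to 245 CPM), in fibroblasts (21.6 to 335 CPM) and in endothelial cells (24.1 to 76.2 CPM), again with overlapping ranges. Figf was found in epicardial cells (0 to 95.6 CPM), in fibroblasts (0 to 22.8 CPM) and in cardiomyocytes of YAP5SA hearts; the smooth muscle cluster held no UMI of it. Within fibroblasts Figf was highest in cluster CF1, at 61.6 to 151 CPM in the 5 libraries with at least 10 such cells, against 0 to 23.9 CPM in CF2, CF3 and CF4.

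**Figure D1:**
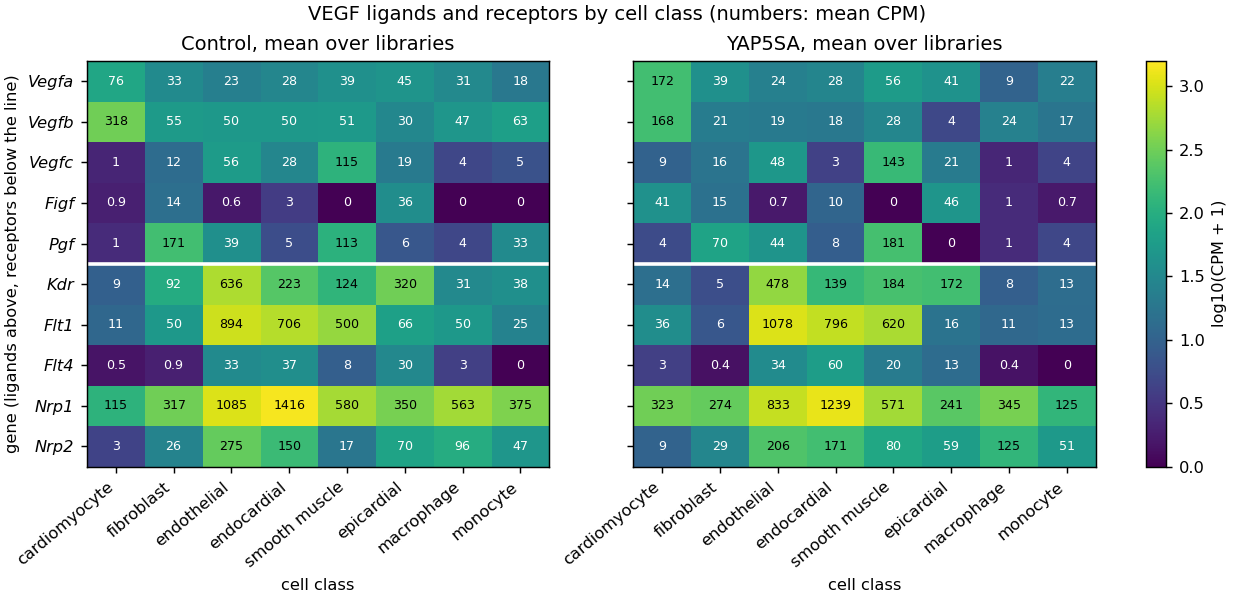
Mean level (CPM, mean over libraries with at least 10 cells) of the 10 VEGF genes in 8 cell classes, Control on the left and YAP5SA on the right, with the colour on a log10 scale and the mean printed in each cell. Vegfa and Vegfb are highest in cardiomyocytes, Kdr and Flt1 in endothelial cells, and the cardiomyocyte cell of Figf goes from 0.9 to 41 CPM.

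Counted as molecules per library, which also depends on how many cells of each class were captured, cardiomyocytes held 49.1% to 95.5% of all Vegfa UMIs and 47.1% to 96.6% of all Vegfb UMIs. In YAP5SA tissue 2 cardiomyocytes gave 9.35% of all UMIs, yet 49.1% of those of Vegfa and 47.1% of those of Vegfb. For Figf the cardiomyocyte share was 33.3%, 7.84% and 21.4% in the Control libraries (of 6, 51 and 28 UMIs) and 75.6%, 56.3% and 43.2% in the YAP5SA libraries (of 160, 80 and 155 UMIs). Fibroblasts held 86.3% of the Figf UMIs of Control tissue 2 and 35.7% of those of Control tissue 3. The 3 YAP5SA shares lay above the 3 Control shares, although cardiomyocytes gave fewer of all UMIs in YAP5SA (9.35% to 44.8%) than in Control (50.1% to 85.2%). For Vegfc the cardiomyocyte share was 5.41% to 6.45% in Control and 9.68% to 22.2% in YAP5SA. For Pgf fibroblasts held 70.0% to 87.8% of the UMIs in YAP5SA and 16.7% to 72.9% in Control.

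**Figure D2:**
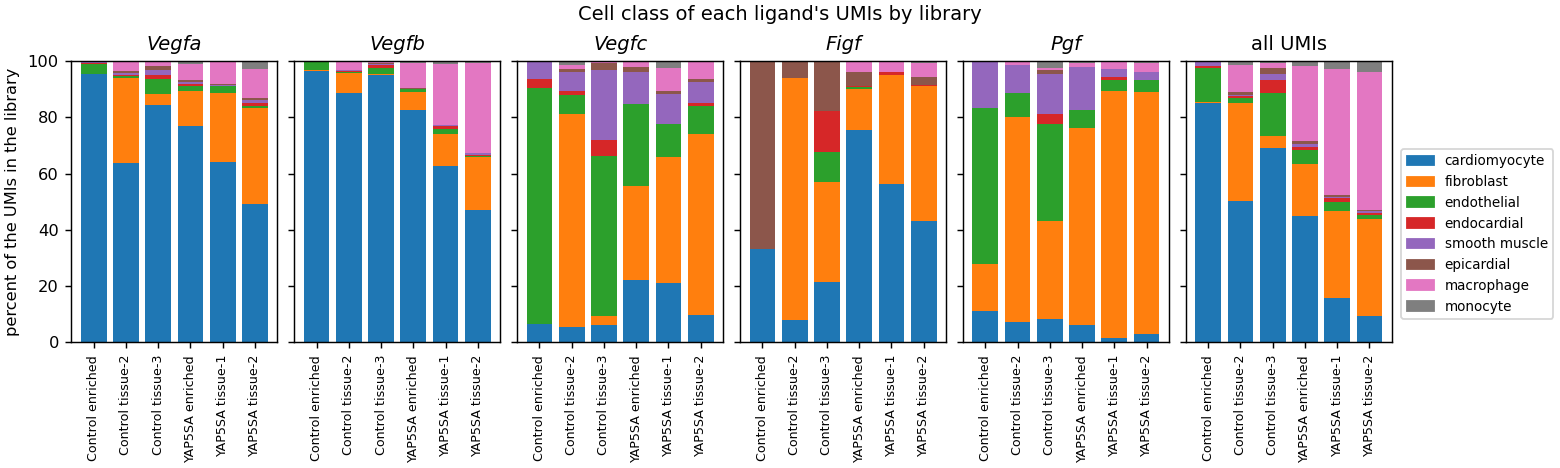
Percent of each ligand's UMIs that lie in each cell class, 1 bar per library, with the class make-up of all UMIs in the last panel. Cardiomyocytes hold 43.2% to 75.6% of the Figf UMIs in YAP5SA libraries and 7.84% to 33.3% in Control libraries, while their share of all UMIs is lower in YAP5SA.

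The receivers were chiefly endothelial. Flt1 was highest in endothelial cells (728.5 to 1181 CPM), then in endocardial cells (603 to 929 CPM) and in the smooth muscle cluster (400 to 725 CPM). Endocardial cells overlapped both of the others, and the endothelial and smooth muscle ranges did not overlap. No library of another class passed 131 CPM. Kdr reached 372 to 728 CPM in endothelial cells, 153 to 486 CPM in epicardial cells, 21.5 to 428 CPM in endocardial cells and 88.8 to 264 CPM in the smooth muscle cluster, and these ranges overlapped from 1 to the next. Flt1 and Kdr in the smooth muscle cluster stand beside the endothelial markers given above, and their part in that level was not tested. The highest epicardial Kdr (486 CPM, Control tissue 3) was in the library with 5057 CPM of vascular endothelial markers; the other 4 had 705 to 954 CPM of these and at most 179 CPM of Kdr. Flt4 gave 172 UMIs in all, and its highest means were in endocardial (48.1 CPM) and endothelial cells (33.3 CPM). Summed, the lymphatic markers were higher in endocardial than in endothelial cells, as given above, mostly through Lyve1 (366 against 104 UMIs). Prox1 gave 24 against 13 UMIs and Pdpn 1 against 0. Mmrn1 gave 7 against 22, Ccl21a 4 against 21 and Reln 0 against 13, from fewer endocardial than endothelial cells. The part of these markers in Flt4 was not tested. Nrp1 was seen in every class, from a mean of 1328 CPM in endocardial and 959 CPM in endothelial cells to 219 CPM in cardiomyocytes, with overlapping neighbours throughout. Nrp2 was highest in endothelial (121 to 285 CPM) and endocardial cells (110 to 272 CPM), followed by macrophages (35.8 to 167 CPM). UMIs were counted per gene symbol, so the soluble and membrane forms of Flt1 and the splice forms of Vegfa could not be told apart.

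Between genotypes, the question was whether cardiomyocytes with active YAP change the VEGF signals they send. In cardiomyocytes Figf and Vegfc rose and Vegfb fell in YAP5SA, and the other 5 tested members, among them Vegfa, did not pass. The UMIs of each class were added up within a library and tested with edgeR's quasi-likelihood test with preparation as a term, at a Benjamini-Hochberg adjusted p of 0.05 over all genes of the class. Of the 8 members tested 3 passed (2 higher, 1 lower), against 25.4% of all 11807 genes tested in cardiomyocytes (13.3% higher, 12.1% lower), so the share of members is near that of genes in general. Pgf and Flt4 were too low to be tested there. Levels of members in the account of cardiomyocytes that follows carry the TMM scaling used by this test, which corrects for the make-up of each library's RNA; without it the median of all genes moved from 0.06 to 0.91 on the log2 scale, and 90.8% in place of 52.4% of the calls were higher.

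Markers of other cells also differed in level within the cardiomyocyte class. The summed level of 5 smooth muscle markers was 36.8 to 297 CPM in Control and 2953 to 3472 CPM in YAP5SA, of 7 fibroblast markers 74.3 to 391 and 441 to 626 CPM, and of 8 macrophage markers 9.37 to 127 and 206 to 557 CPM. The 9 cardiomyocyte markers summed to 56500 to 76810 CPM in Control and 27620 to 37720 CPM in YAP5SA. A subset of cardiomyocytes held no UMI of 24 macrophage, fibroblast and vascular endothelial markers (151 to 591 Control and 31 to 304 YAP5SA cells per library). Smooth muscle and epicardial markers were not among the 24. Over all cardiomyocytes the 6 epicardial markers summed to 2.06 to 4.10 CPM in Control and 37.0 to 72.7 CPM in YAP5SA. The part of the markers left in was not tested. In the subset unscaled Figf was at 1.28, 0 and 1.61 CPM in Control and 23.8, 25.6 and 56.0 CPM in YAP5SA, on 16, 3 and 3 UMIs (log2 fold change 3.95, edgeR adjusted p = 0.0237). Vegfc gave 0 UMIs in Control and 1 in YAP5SA there, too few to be tested, and Vegfb did not pass (−1.27, adjusted p = 0.140).

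Figf encodes VEGF-D, a ligand of Flt4. Its scaled levels in cardiomyocytes were 0.99, 1.33 and 1.26 CPM in the enriched, tissue 2 and tissue 3 libraries of Control (2, 4 and 6 UMIs) and 22.9, 29.6 and 36.9 CPM in the enriched, tissue 1 and tissue 2 libraries of YAP5SA (121, 45 and 67 UMIs). All 3 YAP5SA libraries were above all 3 Control libraries. The means were 1.19 ± 0.18 and 29.8 ± 6.99 CPM (SD, n = 3 each), and the log2 fold change was 4.61 with a standard error (SE) of 0.36 (edgeR adjusted p = 0.00227). Pooled over libraries and without scaling, the ratio was 39.1, with an exact 95% interval from 22.0 to 76.8 for counting error alone. Leaving out each library in turn gave log2 fold changes from 4.54 to 4.77, all past the threshold. Vegfc, a second ligand of Flt4, had 0.99, 1.33 and 2.3 CPM in Control (2, 4 and 11 UMIs) and 4.17, 10.5 and 4.96 CPM in YAP5SA (22, 16 and 9 UMIs). The groups did not overlap, on few molecules. The means were 1.54 ± 0.68 and 6.55 ± 3.46 CPM (SD, n = 3 each), with a log2 fold change of 2.03 (SE 0.58, edgeR adjusted p = 0.0400). That call was lost in 5 of the 6 fits that left out a library (log2 fold changes 1.70 to 2.39) and was kept only without Control tissue 2.

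Vegfb, a ligand of Flt1 linked to fatty acid handling in the heart, had 512, 206 and 629 CPM in the enriched, tissue 2 and tissue 3 libraries of Control (1035, 622 and 3007 UMIs) and 136, 137 and 101 CPM in the enriched, tissue 1 and tissue 2 libraries of YAP5SA (719, 208 and 184 UMIs). Control tissue 2 lay far below the other Control libraries, and all YAP5SA libraries lay below it. It also had a lower mitochondrial share than the other Control libraries, as given above, and the part of that was not tested. The means were 449 ± 218 and 125 ± 20.3 CPM (SD, n = 3 each), and the log2 fold change was −1.85 (SE 0.47, edgeR adjusted p = 0.0277). On library totals alone the groups overlapped, at 183 to 411 CPM in Control and 146 to 196 CPM in YAP5SA, and the log2 fold change of −0.91 did not pass (adjusted p = 0.0938). It was also lost in 5 of the 6 fits without a library, which ranged from −2.19 to −1.30, and was kept only without Control tissue 2. Vegfa, the main growth factor of blood vessels, had 136, 69.3 and 111 CPM in Control (274, 209 and 529 UMIs) and 72.4, 162 and 137 CPM in YAP5SA (382, 246 and 248 UMIs). The enriched YAP5SA library was low and the 2 tissue libraries of YAP5SA were above every Control library, tissue 2 only just. The log2 fold change was 0.19 (SE 0.42, adjusted p = 0.763), and −0.16 without Control tissue 2. In the 4 libraries that share 1 way of naming genes, which leave out the enriched YAP5SA library and Control tissue 3, it was 1.09 with an adjusted p of 9.63e-04 by edgeR. Pgf, the placental growth factor, gave 23 UMIs in Control and 24 in YAP5SA cardiomyocytes, and its scaled levels overlapped (2.00 ± 1.22 and 3.19 ± 2.01 CPM, SD, n = 3 each).

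Of the receptors, Flt1 had 21.3, 8.62 and 14.2 CPM in Control cardiomyocytes (43, 26 and 68 UMIs) and 51.9, 15.8 and 16.5 CPM in YAP5SA (274, 24 and 30 UMIs). The enriched YAP5SA library stood above all others, and the rest overlapped. The log2 fold change of 0.77 (SE 0.34) did not pass (adjusted p = 0.131), and on library totals alone it was 1.66 (adjusted p = 0.00702). The 9 vascular endothelial markers were also higher within cardiomyocytes, at 323 to 479 CPM in Control and 581 to 1025 CPM in YAP5SA, the last in the enriched library. In the cardiomyocytes with no UMI of the 24 macrophage, fibroblast and vascular endothelial markers, unscaled Flt1 was at 7.03, 2.28 and 3.22 CPM in Control. It was at 8.91, 0 and 0 CPM in YAP5SA (14 and 6 UMIs), so that the groups overlapped. Nrp1 had 76.7, 246 and 110 CPM in Control and 232, 283 and 200 CPM in YAP5SA, where Control tissue 2 overlapped YAP5SA. Its log2 fold change of 0.82 (SE 0.44) did not pass (adjusted p = 0.205), but reached 1.33 (adjusted p = 0.0106) without Control tissue 2 and 1.62 (adjusted p = 0.0335) on library totals alone. Nrp2 (log2 fold change 0.59, adjusted p = 0.510) and Kdr (−0.26, adjusted p = 0.765) did not pass, and Kdr turned to 0.67 on library totals alone. Flt4 was too low to be tested, with 7 UMIs in Control and 18 in YAP5SA cardiomyocytes, and scaled levels of 0.67 ± 0.17 and 2.21 ± 0.47 CPM (SD, n = 3 each) that did not overlap.

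**Figure D3:**
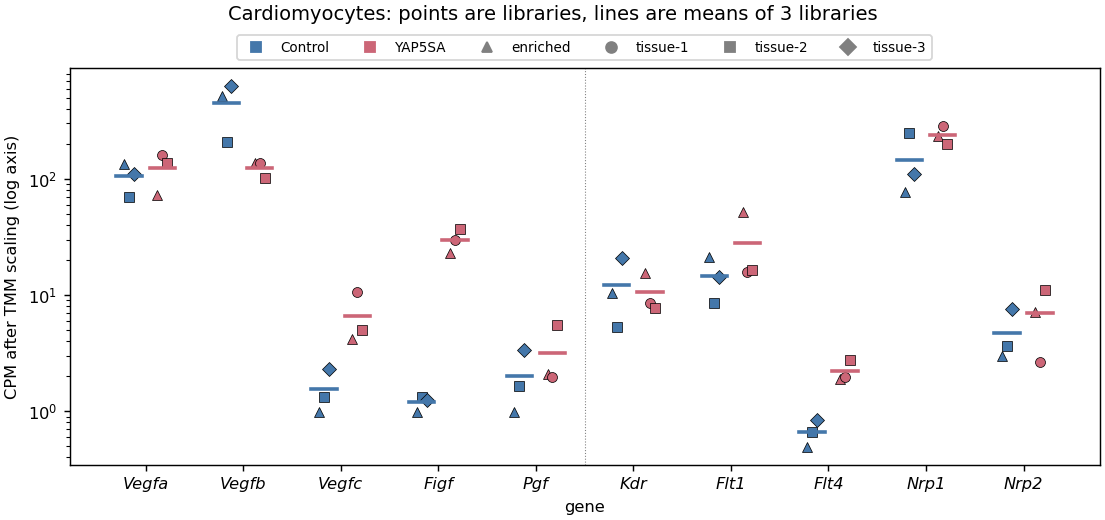
CPM after TMM scaling (log axis) of the 10 genes in cardiomyocytes, with 1 point per library shaped by preparation and a line at the mean of 3 libraries. The YAP5SA points of Figf sit between 22.9 and 36.9 CPM, all above the Control points between 0.99 and 1.33, while the Vegfa points of both genotypes mix.

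The share of cardiomyocytes with a UMI shows how widely each ligand was seen. Each cell was thinned to 1000 UMIs, and shallower cells were left out (16 to 19 per Control library, 37 to 116 per YAP5SA library). A Figf UMI was then found in 0.0953%, 0% and 0.0865% of Control cardiomyocytes and in 1.80%, 3.13% and 6.12% of YAP5SA cardiomyocytes. The exact 95% intervals of the 3 YAP5SA shares were 1.03% to 2.91%, 1.44% to 5.85% and 3.47% to 9.90%, for counting error alone. The upper bounds in the enriched Control library and Control tissue 3 were 0.530% and 0.481%, and the 0 of Control tissue 2 allows up to 0.536% of cells with a UMI. Without thinning the shares were 0.187%, 0.694% and 0.512% in Control and 8.47%, 9.33% and 16.7% in YAP5SA. No thinned endothelial cell of any library had a Figf UMI; the class held 4 such UMIs in all before thinning, at unthinned median depths of 1008 to 1472 UMIs per endothelial cell and 1876 to 4595 per cardiomyocyte. Thinned Vegfb was seen in 31.7%, 15.0% and 32.1% of Control and 14.3%, 18.8% and 10.2% of YAP5SA cardiomyocytes, so the genotypes overlapped (56.8%, 53.5%, 74.6% and 42.3%, 36.7%, 31.9% without thinning). Thinned Vegfa was seen in 10.7%, 5.54% and 8.91% of Control and 7.66%, 21.2% and 20.4% of YAP5SA cardiomyocytes (22.1%, 28.0%, 32.1% and 23.5%, 33.5%, 36.2% without thinning). The high values were in the tissue libraries of YAP5SA. In endothelial cells the thinned shares were 0.541% to 3.70% for Vegfa and 0% to 7.06% for Vegfb. For comparison, a thinned Kdr UMI was found in 31.9% to 50.6% of endothelial cells (40.3% to 65.3% without thinning) and in 0.408% to 1.82% of cardiomyocytes.

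The cardiomyocyte class is made up differently in the genotypes. The authors' cluster YAP5SAcm held 1.5%, 8.68% and 2.81% of Control cardiomyocytes (16, 50 and 33 cells) and 47.9%, 61.8% and 72.0% of YAP5SA cardiomyocytes (481, 212 and 203 cells); clusters CM1 and CM3 held most Control cells. Nearly all Figf molecules of YAP5SA cardiomyocytes were in this cluster, namely 110 of 121, 44 of 45 and 64 of 67 UMIs. In the same libraries CM1 held 2, 0 and 0, CM2 held 8, 0 and 2, and CM3 held 1, 1 and 1. Over the 3 YAP5SA libraries the cluster held 93.6% of the cardiomyocyte UMIs of Figf, 91.5% of those of Vegfc, 86.5% of those of Vegfa and 52.4% of those of Vegfb, beside 59.2% of all cardiomyocyte UMIs. Within the cluster, unscaled Figf was at 0, 0 and 11.9 CPM in Control (1 UMI in all) and 47.6, 59.0 and 68.3 CPM in YAP5SA. The pooled ratio in the cluster was 14.0, and with 1 Control molecule its 95% counting interval ran from 2.49 to 556. In YAP5SA unscaled Figf was at 0 to 56.9 CPM in CM2, which overlapped YAP5SAcm, and at 3.25 to 11.2 CPM in CM3.

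The genotypes were then compared within each cluster with the same edgeR test. The clusters were drawn from the same transcripts and hold the genotypes unevenly. A difference within or between them thus depends on how cells were sorted, and the part of that sorting was not tested. In YAP5SAcm 2 of 7 tested members passed, both higher, against 8.62% of the genes tested in that cluster. They were Figf (log2 fold change 3.65, adjusted p = 0.0151) and Vegfa (1.76, adjusted p = 0.0488). Figf was again below the filter in every Control library and entered through YAP5SA. For Vegfa the unscaled levels were 73.9, 13.7 and 107 CPM in Control (2, 2 and 9 UMIs) and 134, 294 and 245 CPM in YAP5SA (309, 219 and 230 UMIs), without overlap but on 13 Control molecules. Vegfa passed in 2 of the 6 fits without a library, those without the enriched Control library or Control tissue 3, over a range of 0.95 to 3.06. Figf also passed in these 2 but not without Control tissue 2 (2.45, adjusted p = 0.247), and was too low to be tested without a YAP5SA library. Kdr was at −1.83 (adjusted p = 0.0805). Vegfc in the cluster had a pooled ratio of 0.92, with a 95% counting interval from 0.30 to 4.65. In these few Control cells of the cluster the vascular endothelial markers reached 3918, 226 and 3400 CPM, against 654 to 1362 CPM in YAP5SA, and their part in the ligand levels was not tested.

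In clusters CM1 and CM3 Vegfa was lower in YAP5SA on average, without passing. In CM1 its unscaled levels were 83.3, 59.3 and 64.3 CPM in Control and 32.1, 60.5 and 25.2 CPM in YAP5SA. The log2 change there was −1.36 (edgeR adjusted p = 0.304). In CM3 the unscaled levels were 133, 110 and 143 CPM against 55.2, 78.6 and 67.0 CPM (−1.27, edgeR adjusted p = 0.207). Neither passed, against 0.0217% of genes called in CM1 and 0.0% in CM3. The unscaled groups overlapped in CM1 and not in CM3. With the scaling of the test the CM1 groups did not overlap either, at 59.8 to 105 CPM in Control and 19.8 to 48.2 CPM in YAP5SA. The difference between clusters was then tested, a test chosen after these values were seen. It cannot tell a change within cells from the sorting of changed cells into YAP5SAcm. It was not repeated with a library left out. The Vegfa effect in YAP5SAcm exceeded that in CM1 by 2.90 on the log2 scale (SE 0.54, edgeR adjusted p = 4.39e-05, 1.53% of genes called) and that in CM3 by 2.84 (SE 0.58, adjusted p = 9.01e-04, 0.762% called). It did not differ past the threshold from CM2 (0.73, SE 0.69, adjusted p = 0.841, 0.087% called). No other tested member differed between these clusters past the threshold. Within CM2 only Nrp1, Vegfa and Vegfb could be tested, and none passed, where 4.66% of genes did. Figf, with 2 Control and 10 YAP5SA UMIs in CM2, and Vegfc were too low to be tested in CM2 or against it.

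**Figure D4:**
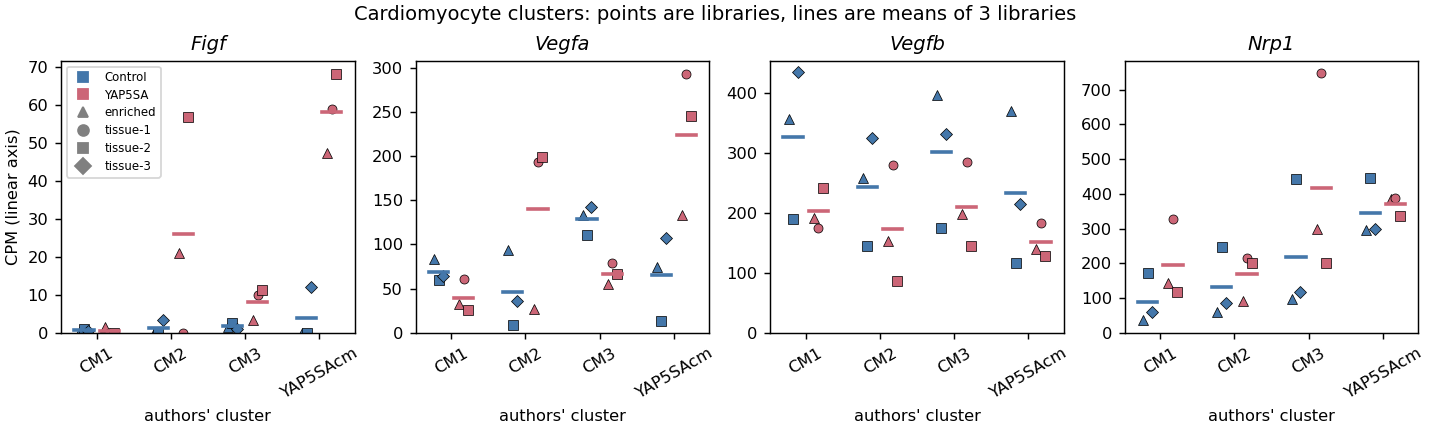
Unscaled CPM of Figf, Vegfa, Vegfb and Nrp1 in the 4 cardiomyocyte clusters, with 1 point per library and a line at the mean of 3 libraries. Figf and Vegfa have their highest means in the cluster YAP5SAcm of YAP5SA hearts, where their ranges overlap those of CM2. Vegfa in CM3 is lower in all 3 YAP5SA libraries than in any Control library.

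Outside cardiomyocytes no tested VEGF gene passed. Many members were too low to be tested in a class. No ligand was tested in endocardial or epicardial cells, Figf was tested only in fibroblasts, and Flt4 only in endothelial cells. With edgeR 0 of 39 tests of members in the 7 other classes were called, 7 had an unadjusted p under 0.05, and DESeq2 called 0. Few genes of any kind were called there: 1.93% in fibroblasts, 0.609% in macrophages, 0.491% in epicardial cells, and 0.0% each in endothelial, endocardial, smooth muscle and monocyte classes. The main receivers kept overlapping levels: Kdr in endothelial cells was at 666, 513 and 728 CPM in Control and 372, 615 and 447 CPM in YAP5SA, a log2 change of −0.54 (SE 0.32, adjusted p = 0.602). Endothelial Flt1 was at 1181, 773 and 728.5 CPM in Control and 1017, 1111 and 1107 CPM in YAP5SA, a log2 change of 0.23 (SE 0.29, adjusted p = 0.822). Endothelial Flt4 differed by 0.05 (SE 0.50, adjusted p = 0.982). Vegfb pointed down in endothelial cells too, from 75.7, 32.6 and 41.8 CPM to 20.1, 27.3 and 10.2 CPM, without overlap and without passing (−1.51, SE 0.45, adjusted p = 0.290). It was also below 0 in fibroblasts (−0.69), macrophages (−0.99) and monocytes (−2.85), without passing. Within clusters it was above 0 in CF3 (0.14) and Mac1 (0.17). In endocardial cells, where it was not tested, its mean went from 50.2 to 18.1 CPM. The 9 cardiomyocyte markers in endothelial cells were at 19440, 3639 and 4921 CPM in Control and 3315, 3446 and 1259 CPM in YAP5SA, and their part was not tested. Fibroblast Kdr (−2.91, SE 0.82, adjusted p = 0.0892) and Flt1 (−1.70, SE 0.61, adjusted p = 0.422) were highest in Control tissue 3 or the 10 cells of the enriched Control library. In those libraries the vascular endothelial markers in fibroblasts were 1304 and 894 CPM, against 270 CPM in Control tissue 2 and 581 to 649 CPM in YAP5SA; their part was not tested.

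In macrophages Vegfa (−1.56, adjusted p = 0.418) and Nrp1 (−0.99, adjusted p = 0.459), and in monocytes Nrp1 (−1.83, adjusted p = 0.475), were lower in YAP5SA without passing. These fits rest on 2 Control and 2 YAP5SA tissue libraries, since the only enriched library with such cells was that of YAP5SA and the preparation term absorbs it; the same holds for epicardial cells. Without Control tissue 2, Control tissue 3 was the lone Control library in the macrophage and monocyte fits, assumed to vary like the others, and 11 of the member tests in the 7 classes passed, all lower in YAP5SA. In Control tissue 3 macrophages carried 2214 CPM of vascular endothelial and 3396 CPM of fibroblast markers, against 176 to 273 and 152 to 376 CPM in YAP5SA. Cardiomyocyte markers in macrophages were at 2963 and 8218 CPM in Control tissue 2 and 3 and 703 to 2375 CPM in YAP5SA. Monocytes of Control tissue 3 carried 9808 CPM of fibroblast and 2006 CPM of vascular endothelial markers, against 234 to 1867 and 274 to 357 CPM in YAP5SA. The part of these markers was not tested. Within the fibroblast and macrophage clusters no member passed either; with the 3 CM clusters these were 55 tests in 10 clusters, of which 9 had an unadjusted p under 0.05. The share of all genes called was 0.0% in CF1, CF2 and CF3, 2.37% in CF4, 1.52% in Mac1, 0.792% in Mac2 and 1.41% in Mac4, and Mac3 had too few Control libraries. In CF4 Pgf was at a log2 fold change of 1.98 (SE 0.63, adjusted p = 0.0607). Its unscaled levels overlapped, at 13.1 and 85.9 CPM in Control (12 UMIs in all) and 56.0 to 58.8 CPM in YAP5SA. Control tissue 3 held 12 CF4 cells. The fibroblast and macrophage clusters also lacked an enriched Control library.

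**Figure D5:**
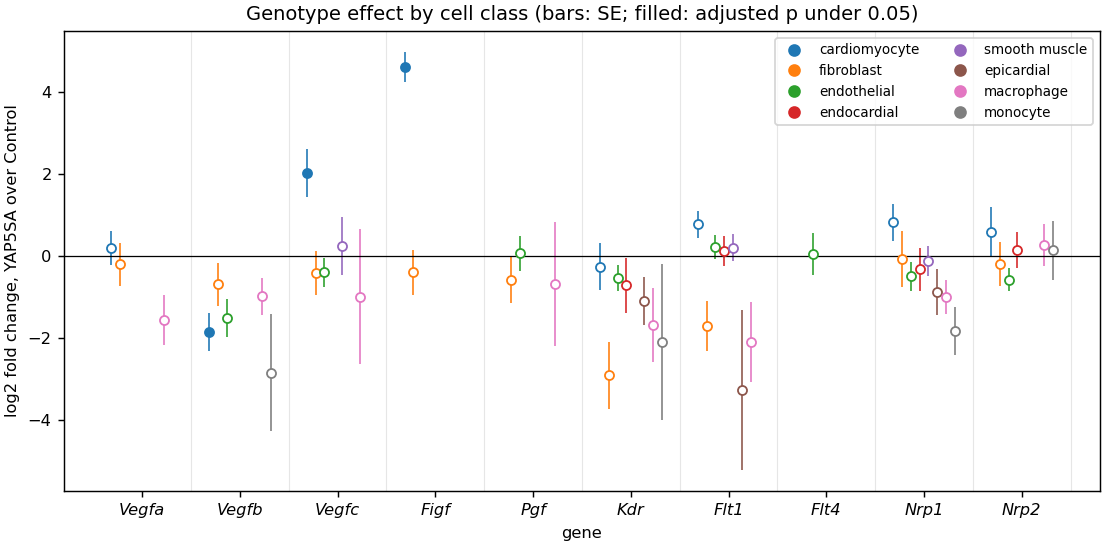
Log2 fold change of YAP5SA over Control for each gene and cell class that could be tested, with bars for the SE and filled points where the adjusted p was under 0.05. The 3 filled points are Figf, Vegfc and Vegfb in cardiomyocytes.

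A gene that passes in 1 class and not in another need not differ between them, so the difference of the genotype effect was tested with a class by genotype term and the library as a block. Against fibroblasts the spread used was shared over genes, so very small p-values there rest little on the spread of that gene. For Figf the effect was smaller in fibroblasts than in cardiomyocytes by 5.02 on the log2 scale (SE 0.64, edgeR adjusted p = 2.97e-12, against 17.4% of genes called), with unscaled fibroblast levels of 0, 18.6 and 22.8 CPM in Control and 12.5, 15.1 and 15.9 CPM in YAP5SA. It was smaller in epicardial cells by 3.70 (SE 1.09, adjusted p = 0.0170, 6.6% called), a call kept in 1 of 5 fits without a library. For Vegfc the effect was smaller in fibroblasts (−2.01, adjusted p = 0.0239), endothelial cells (−1.96, adjusted p = 0.0408, 14.3% called) and endocardial cells (−4.33, adjusted p = 0.0440, 9.87% called), the last on 12 Control UMIs and 1 YAP5SA UMI. With a library left out these calls were kept in 2, 2 and 0 of 6 fits. For Flt1 it was smaller in fibroblasts, macrophages (12.9% called) and epicardial cells, for Kdr in fibroblasts, for Vegfa in macrophages and for Nrp1 in monocytes (9.32% called). In all 11 differences passed, but 2 without the enriched Control library or Control tissue 3 and 5 without either YAP5SA tissue library. Over all genes 6.6% to 17.4% were called per comparison, in each of which most of the 10 members were tested. The members were not tested against that share. No member passed against the smooth muscle cluster, where 7.1% of genes did. Vegfb did not differ past the threshold between cardiomyocytes and any class. Figf did not differ past the threshold in macrophages (0.34, SE 1.12, adjusted p = 0.884), where Control had no UMI of it and YAP5SA had 17, nor in endothelial (−4.70, adjusted p = 0.0566) or endocardial cells (−3.86, adjusted p = 0.0671). In the smooth muscle cluster, with no Figf UMI, the difference has no meaning.

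Genes around the pathway were read in cardiomyocytes from lists chosen by function with earlier results of these data known, beside 13.3% of all genes tested that were called higher and 12.1% lower. Among 12 tested genes for binding and release of VEGF, 5 rose and 0 fell, with a median log2 fold change of 1.88 beside 0.06 for all genes. Thbs1, a matrix protein that binds VEGF and restrains angiogenesis, rose from 5.63 ± 4.35 to 197 ± 106 CPM (SD, n = 3 each, log2 fold change 5.28, edgeR adjusted p = 0.00227). Adamts1, a metalloprotease, rose from 32.7 ± 12.9 to 344 ± 220.3 CPM (3.36, adjusted p = 0.00639). Of 9 tested semaphorins and plexins 5 rose and 0 fell (median 1.88), led by the neuropilin ligand Sema3f (0.73 ± 0.45 to 40.4 ± 14.6 CPM, log2 fold change 5.89, adjusted p = 0.00227) and by Sema3e, a plexin ligand (0.83 ± 0.83 to 30.4 ± 10.8 CPM, 5.17, adjusted p = 0.00273). Of 13 other angiogenic factors 4 rose and 0 fell (median 1.73). Angptl4, an inhibitor of lipoprotein lipase, rose from 12.5 ± 2.27 to 92.7 ± 31.4 CPM (2.87, adjusted p = 0.00238), and Adm, the vasodilator adrenomedullin, from 3.07 ± 0.95 to 55.3 ± 25.3 CPM (4.07, adjusted p = 0.00337).

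Known targets of hypoxia-inducible factors changed in both directions: of 16 tested, 4 rose and 4 fell, with a median of 0.34. Adm is on this list too, and Plod2, a collagen lysyl hydroxylase, rose from 42.2 ± 18.4 to 388 ± 81.5 CPM (3.2, adjusted p = 0.00442). Slc2a1 and P4ha1 were the other 2 that rose, and Bnip3, Pdk1, Ankrd37 and Egln3 fell, names given after their values were seen. Of 14 genes for control of VEGF production 1 rose and 1 fell (median 0.02), Vhl (1.47, adjusted p = 0.0309) and the prolyl hydroxylase Egln3 (−1.17, adjusted p = 0.0381). Both calls were lost in most fits without a library. Of 29 signal transduction genes 5 rose and 0 fell (median 0.33), a share near that of all genes called higher, among them Ptk2, the focal adhesion kinase (1.48, edgeR adjusted p = 0.0165). The Ptk2 call was kept in 1 of 6 fits without a library. None of 11 tested endothelial response genes passed (median 0.43). In the 7 other classes 1 gene of all lists passed, a signal transduction gene that fell in macrophages.

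Genes with the most alike pattern over 79 pairs of cluster and library (at least 30 cells each) were found for each member. The likeness is Pearson's r of log2(CPM + 5) among 12007 genes; points share libraries and cell classes, so it is a description. Flt1 was nearest to the endothelial genes Fabp4 (r = 0.937), Adgrf5 (0.935) and Pecam1 (0.932), and Kdr to Esam (0.869), Aqp1 (0.857) and Tmem88 (0.852). Vegfb was nearest to the cardiomyocyte genes Cox6a2 (0.904), Tnnt2 (0.9) and Fabp3 (0.895). Vegfa had looser neighbours, Dag1 (0.709), Cacna2d1 (0.698) and Tead1 (0.688), the last a DNA partner of YAP. Figf was nearest to Scarf2 (0.766), Itm2a (0.759) and Slit3 (0.757), and Pgf to Aspn (0.871), Ebf2 (0.862) and Serpine2 (0.849). Among the genes most like Vegfc were Fam101b (0.790) and Rasl12 (0.777). Nrp1 was nearest to Dusp3 (0.754), S1pr1 (0.706) and Entpd1 (0.703), and Nrp2 to Hpcal1 (0.864), Sash1 (0.862) and BC028528 (0.856). Flt4 had too few UMIs for this measure.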

How the data were processed

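The deposited table of UMI counts holds 22281 features in 21706 cells, and the deposited table of cells gives library, cluster and the fraction of mitochondrial UMIs; these are counts and fractions as the authors made them. Picard, STAR and Seurat 2.3.4 were used, per the submitters' processing notes; settings, build and annotation are not given in the sources used here. Where genes overlap, 4 libraries list them under 1 hyphenated name; 852 such joined names were merged with their members into 641 families (Nrp1 took in Mir1903-Nrp1), and 1213 features counted under 1 annotation only were not tested.

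Counts were summed per library and class or cluster (at least 10 cells; a cluster needed 2 such libraries per genotype) and fitted with edgeR 4.0.16 in R 4.3.3: genes kept by filterByExpr, TMM scaling, and the robust quasi-likelihood test of genotype with preparation as a second term. The SE is the absolute log2 fold change divided by the square root of that test's F statistic. The test draws each gene's spread toward one shared over genes. In YAP5SAcm, and in the differences against fibroblasts, CM1 and CM3, p was that of a normal curve at the effect over its SE. In those fits the spread of the single gene had little or no weight. Scripts were tested on simulated data. As alternatives the fit was repeated with library totals alone, with RLE size factors, without the filter or the preparation term and with DESeq2 1.42.0, and on tissue libraries alone, libraries with at least 30 cells, joined names not merged, cardiomyocytes without a UMI of other cells' markers, all libraries but 1 in turn, and the libraries with joined names alone, the last chosen after seeing the data. Intervals are exact Clopper-Pearson at 95%; a count of 0 allows up to 3 counts. UMI totals set the precision. Named genes were all members, the 2 genes of each list with the smallest p among those that passed in cardiomyocytes, and the 3 most alike to each member with at least 200 UMIs; some of these are not reported here. The members and lists were chosen with earlier results of these data known.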

Additional observations from a re-analysis of the deposited data

Results flagged for a closer look

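The genotype effect of several members differed between cardiomyocytes and another cell class by edgeR's test of the difference (log2 scale, other class minus cardiomyocytes). Over all genes 6.6% to 17.4% were called per comparison, and the members were not tested against that share. Figf differed by −5.02 in fibroblasts (adjusted p = 2.97e-12) and −3.70 in epicardial cells (adjusted p = 0.0170). Vegfc differed by −2.01 in fibroblasts (adjusted p = 0.0239), −1.96 in endothelial cells (adjusted p = 0.0408) and −4.33 in endocardial cells (adjusted p = 0.0440). Flt1 differed by −2.36 in fibroblasts (adjusted p = 0.00116), −2.89 in macrophages (adjusted p = 0.00197) and −3.48 in epicardial cells (adjusted p = 0.0117). Kdr differed by −2.16 in fibroblasts (adjusted p = 0.00509), Vegfa by −1.90 in macrophages (adjusted p = 0.0214) and Nrp1 by −1.86 in monocytes (adjusted p = 0.0100). Within cardiomyocytes the Vegfa effect was larger in YAP5SAcm than in CM1 by 2.90 (adjusted p = 4.39e-05) and than in CM3 by 2.84 (adjusted p = 9.01e-04), in a test chosen after the values were seen and with 13 Vegfa UMIs in the Control cells of YAP5SAcm. The clusters were drawn from the same transcripts, so the sorting of cells into them cannot be told apart from a change within cells. No library was left out for the cluster test. With a library left out, the difference of Figf in fibroblasts passed in 6 of 6 fits (−5.23 to −4.70) and in epicardial cells in 1 of 5. Vegfc passed in 2 of 6 fits in fibroblasts and in endothelial cells and in 0 of 6 in endocardial cells. Flt1 passed in 5 of 6 fits in fibroblasts, 4 of 5 in macrophages and 3 of 5 in epicardial cells, where it turned to 5.14 (adjusted p = 0.884) without Control tissue 3. Kdr in fibroblasts passed in 3 of 6 fits, Vegfa in macrophages in 2 of 5 and Nrp1 in monocytes in 3 of 5. Without Control tissue 3 the differences of Flt1, Kdr, Vegfa and Nrp1 did not pass.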

How the results depend on the processing

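In cardiomyocytes Figf passed under all 9 other settings with a value and in all 6 fits without a library (4.54 to 4.77). Members called there numbered 3, but 1 (Figf) in tissue libraries alone and in cardiomyocytes without a UMI of other cells' markers, and 1 to 4 with a library left out. Vegfb did not pass on library totals alone (−0.91), in tissue libraries alone (−1.77) or in cardiomyocytes without other markers (−1.27), and ranged from −2.19 to −1.30 with a library left out. Vegfc did not pass in tissue libraries alone (2.05) or with joined names not merged (2.04), ranged from 1.70 to 2.39 with a library left out, and was too low to be tested in cardiomyocytes without other markers. Members called in the other 7 classes numbered 0, but 2 with no filter on low counts, 1 in the libraries with joined names alone and 0 to 11 with a library left out, 11 without Control tissue 2. In YAP5SAcm 2 members passed, and 0 to 2 with a library left out. Differences between classes numbered 11, but 28 on library totals alone and 2 to 13 with a library left out, 2 without the enriched Control library or Control tissue 3.

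Values that changed sign and did not pass were Kdr in cardiomyocytes (0.67 on library totals alone, 0.60 in libraries with joined names alone, −0.72 to 0.58 with a library left out), Nrp1 in cardiomyocytes (−0.039), Kdr in endothelial cells (0.11) and Flt1 in fibroblasts (0.094) in libraries with joined names alone, Vegfa in cardiomyocytes (−0.16 to 0.77 with a library left out) and the Flt1 difference in epicardial cells (−4.10 to 5.14). Genes called in cardiomyocytes numbered 2995, against 203 to 4602 with a library left out, 4794 on library totals alone, 1775 in tissue libraries alone and 514 without other markers. The cause of these changes was not tested. No paired analysis was possible because the labels pair no Control library with a YAP5SA library. The replicate numbers of the YAP5SA tissue libraries also differ between the labels and the cell names. Depth limits Pgf and Flt4 in cardiomyocytes, Vegfc throughout and Control values in YAP5SAcm.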
